A study of Mus musculus with 20 samples.

Results

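GABA-A receptors are chloride channels built from 5 subunits, and 7 of the genes that encode those subunits were followed here through the cells of the mouse basolateral amygdala (BLA). The 7 genes were the alpha subunit genes Gabra2, Gabra3, Gabra4 and Gabra5, the beta genes Gabrb1 and Gabrb2, and the gamma gene Gabrg1. They were listed by symbol, with earlier results of these data known. They are 7 of the 19 GABA-A receptor subunit genes and 7 of the 31053 genes in the deposited tables. Among the cells that passed the quality filter the most UMIs (unique molecular identifiers, each standing for 1 captured RNA molecule) came from Gabrb1 with 4098 and Gabra2 with 3977, followed by Gabra4 with 910, Gabrg1 with 878, Gabra3 with 673, Gabra5 with 415 and Gabrb2 with 309.

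The samples were 10 single-cell RNA libraries of the BLA, each from a male wild-type C57BL/6 mouse of 13 weeks, and 10 libraries of the prefrontal cortex were not analysed here. Mice drank corticosterone (CORT) at 35 µg/ml or its control for 6 weeks, received ketamine (Ket) at 10 mg/kg or saline (Sal) by intraperitoneal injection, and gave tissue 24 h later. The control is called BCD after 2-hydroxypropyl cyclodextrin, the vehicle of CORT, although the series text speaks of regular drinking water. The 4 groups were BCD/Sal (2 mice, 9901 and 9947), BCD/Ket (3 mice, 9946, 9949 and 9986), CORT/Sal (2 mice, 9969 and 9970) and CORT/Ket (3 mice, 9967, 9968 and 9971). CORT in the drinking water is a model of chronic stress, and a low dose of ketamine is a fast-acting antidepressant in mice.

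Of 28722 barcodes, 8305 held at least 200 genes and a share of mitochondrial UMIs within the limit the study used, and these carried 17010282 of 45582233 UMIs. Total UMIs per library ran from 811628 to 7281768, and the kept barcodes per library from 135 to 2397, with a median of 826 to 2845 UMIs each. The library CORT/Sal 9970 stood apart: 97.1% of its barcodes passed the mitochondrial limit, its median mitochondrial share was 3.2% against 33.2% to 57.9% in the other 9 libraries, and most of its barcodes fell into a cluster of 2352 that took 99.6% of its members from this library and was left unnamed. The libraries 9946, 9947 and 9967 held 0 to 3 microglia each and only 27, 14 and 39 astrocytes, so the class comparisons below are also given without these 3 libraries where a call changed. CORT/Sal 9970 held 0 microglia as well and is treated on its own. The libraries shared 120 barcode sequences, 21 of them among the kept barcodes.

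Cells were named by their markers, with every subunit gene left out of the clustering. Levels are given in CPM, the UMIs of a gene scaled to 1000000 UMIs of a class, per library or pooled for markers. Excitatory neurons (237 cells) carried Slc17a7, which encodes a vesicular glutamate transporter, at 1214 CPM and Gad1, which encodes a GABA-synthesising enzyme, at 12.4. GABAergic interneurons (148 cells) showed the reverse, with 24.3 CPM of Slc17a7 and 1480 of Gad1. A further 150 inhibitory cells were striatal-like, with Penk at 2099, Gad1 at 469 and the dopamine receptor gene Drd1 at 266 CPM, and interneurons and striatal-like neurons together are called inhibitory neurons. A larger group of 803 neurons led by Cpne7 had too few of the fixed markers to be typed and is called the main neurons of open type, although its cells carried Slc17a7 at 1005 and Gad1 at 24.5 CPM. The labelled tissue was only partly borne out by its markers: Lmo3, abundant in amygdala neurons, stood at 298 CPM in excitatory neurons, whereas Rspo2, a marker of basolateral projection neurons, stood at 2.75 there and at 19.5 in the open-type neurons. Astrocytes (1363 cells), oligodendrocyte precursor cells (409), oligodendrocytes (378), microglia (861) and endothelial cells (1100) were the main other classes. Because CPM is relative to the total, a change in RNA per cell of all genes alike would not show in it, and p-values measure the spread between these mice only.

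In the usual GABA-A receptor a pair of alpha, a pair of beta and a single gamma or delta subunit surround the pore, and GABA binds where a beta and an alpha subunit meet. The alpha subunit largely sets where the receptor sits and how it responds: alpha2 is common at synapses on the axon initial segment and cell body, alpha3 is an alternative synaptic subunit, alpha4 is best known from receptors outside synapses, often with delta, and alpha5 from extrasynaptic receptors of principal neurons. The gamma1 subunit, encoded by Gabrg1, is one of the rarer gamma subunits and has been linked to amygdala and to glia. Astrocytes and oligodendrocyte precursor cells also carry GABA-A receptors and respond to GABA.

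The genes fall into a chromosomal cluster and 3 single loci. Of the 7 genes, the cluster members were also the ones found in astrocytes, but Gabra2, Gabra4 and Gabrb1 were found in neurons too. Whether position has a part in this was not tested. On chromosome 5 of the mouse build NCBIM37 (mm9), Gabrg1 lies at 71142286 to 71233856 on the minus strand, Gabra2 at 71352296 to 71487088 on the minus strand, Gabra4 at 71960973 to 72049547 on the minus strand and Gabrb1 at 72091171 to 72529628 on the plus strand. The gaps between neighbours are 118439, 473884 and 41623 bases. The other members lie alone among the 7: Gabra5 on chromosome 7 at 64663060 to 64765379 (minus strand), Gabrb2 on chromosome 11 at 42233259 to 42446092 (plus strand) and Gabra3 on chromosome X at 69678020 to 69902187 (minus strand).

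The start regions of the 4 cluster genes are shown because Gabra4 and Gabrb1 start next to each other on opposite strands: in RefSeq on GRCm38.p6, the upstream of 2 listed Gabrb1 starts lies 387 bases from the Gabra4 start, and the downstream one 41624 bases from it. All 7 members matched at least 1 RefSeq window, 11 windows in all. Each window runs 5′ to 3′ on the gene's strand from 250 bases before the start to 50 after it, and capitals mark a GC box, GGGCGG read on either strand. They are Gabrg1 at chr5:70842568-70842867 (minus), Gabra2 at chr5:71095800-71096099 (minus), Gabra4 at chr5:71658259-71658558 (minus) and the upstream Gabrb1 window at chr5:71657671-71657970 (plus).
Gabrg1: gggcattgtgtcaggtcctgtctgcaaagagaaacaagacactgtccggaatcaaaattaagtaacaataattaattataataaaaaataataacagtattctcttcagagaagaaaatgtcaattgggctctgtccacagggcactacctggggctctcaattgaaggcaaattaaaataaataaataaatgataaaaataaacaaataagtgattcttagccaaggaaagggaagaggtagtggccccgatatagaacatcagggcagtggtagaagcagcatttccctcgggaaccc
Gabra2: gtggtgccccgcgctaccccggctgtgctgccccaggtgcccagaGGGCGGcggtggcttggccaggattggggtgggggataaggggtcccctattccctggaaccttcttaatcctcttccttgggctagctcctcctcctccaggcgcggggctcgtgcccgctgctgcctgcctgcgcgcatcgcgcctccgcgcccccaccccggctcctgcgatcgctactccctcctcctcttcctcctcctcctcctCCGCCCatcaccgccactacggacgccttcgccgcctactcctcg
Gabra4: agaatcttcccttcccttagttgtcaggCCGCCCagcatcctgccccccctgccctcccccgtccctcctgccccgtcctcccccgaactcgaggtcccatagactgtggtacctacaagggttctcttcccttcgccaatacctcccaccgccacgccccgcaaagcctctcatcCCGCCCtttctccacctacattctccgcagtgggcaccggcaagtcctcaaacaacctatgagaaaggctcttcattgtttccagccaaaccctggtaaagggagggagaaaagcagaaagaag
Gabrb1: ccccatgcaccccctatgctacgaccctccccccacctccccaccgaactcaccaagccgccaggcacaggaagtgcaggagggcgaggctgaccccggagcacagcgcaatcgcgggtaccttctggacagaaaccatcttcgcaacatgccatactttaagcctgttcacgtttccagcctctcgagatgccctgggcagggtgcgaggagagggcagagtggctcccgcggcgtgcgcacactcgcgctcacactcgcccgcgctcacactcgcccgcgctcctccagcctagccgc
The Gabra2 and upstream Gabrb1 windows were rich in G and C (70% and 66%) and held 25 CG pairs each, against a median of 52.7% and 7 pairs over all 32851 windows of this length. The Gabra4 window lay between, with 58.7% and 12 pairs, and the Gabrg1 window was poor, with 38.3% and 3 pairs. Gabra2, Gabra4 and Gabrb2 had a GC box in at least 1 window, as did 35.7% of all windows, and Gabra3 and Gabrb2 had TATAAA, as did 13.6%. None of the 11 windows held TGACGTCA (a cAMP response element, in 1.79% of all windows), a palindromic glucocorticoid response element (0.00913%) or a palindromic NFI site (0.0365%), which says only that these letters are not in these windows.

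The plot of member levels by class and library gives the overall pattern: the alpha genes and Gabrb2 were highest in neurons, Gabrb1 was high in neurons and astrocytes, and Gabrg1 was highest in astrocytes. In oligodendrocytes, microglia and endothelial cells the mean of each member was at most 15.8 CPM, and these classes serve as the background that free RNA can give.

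**Figure D1:**
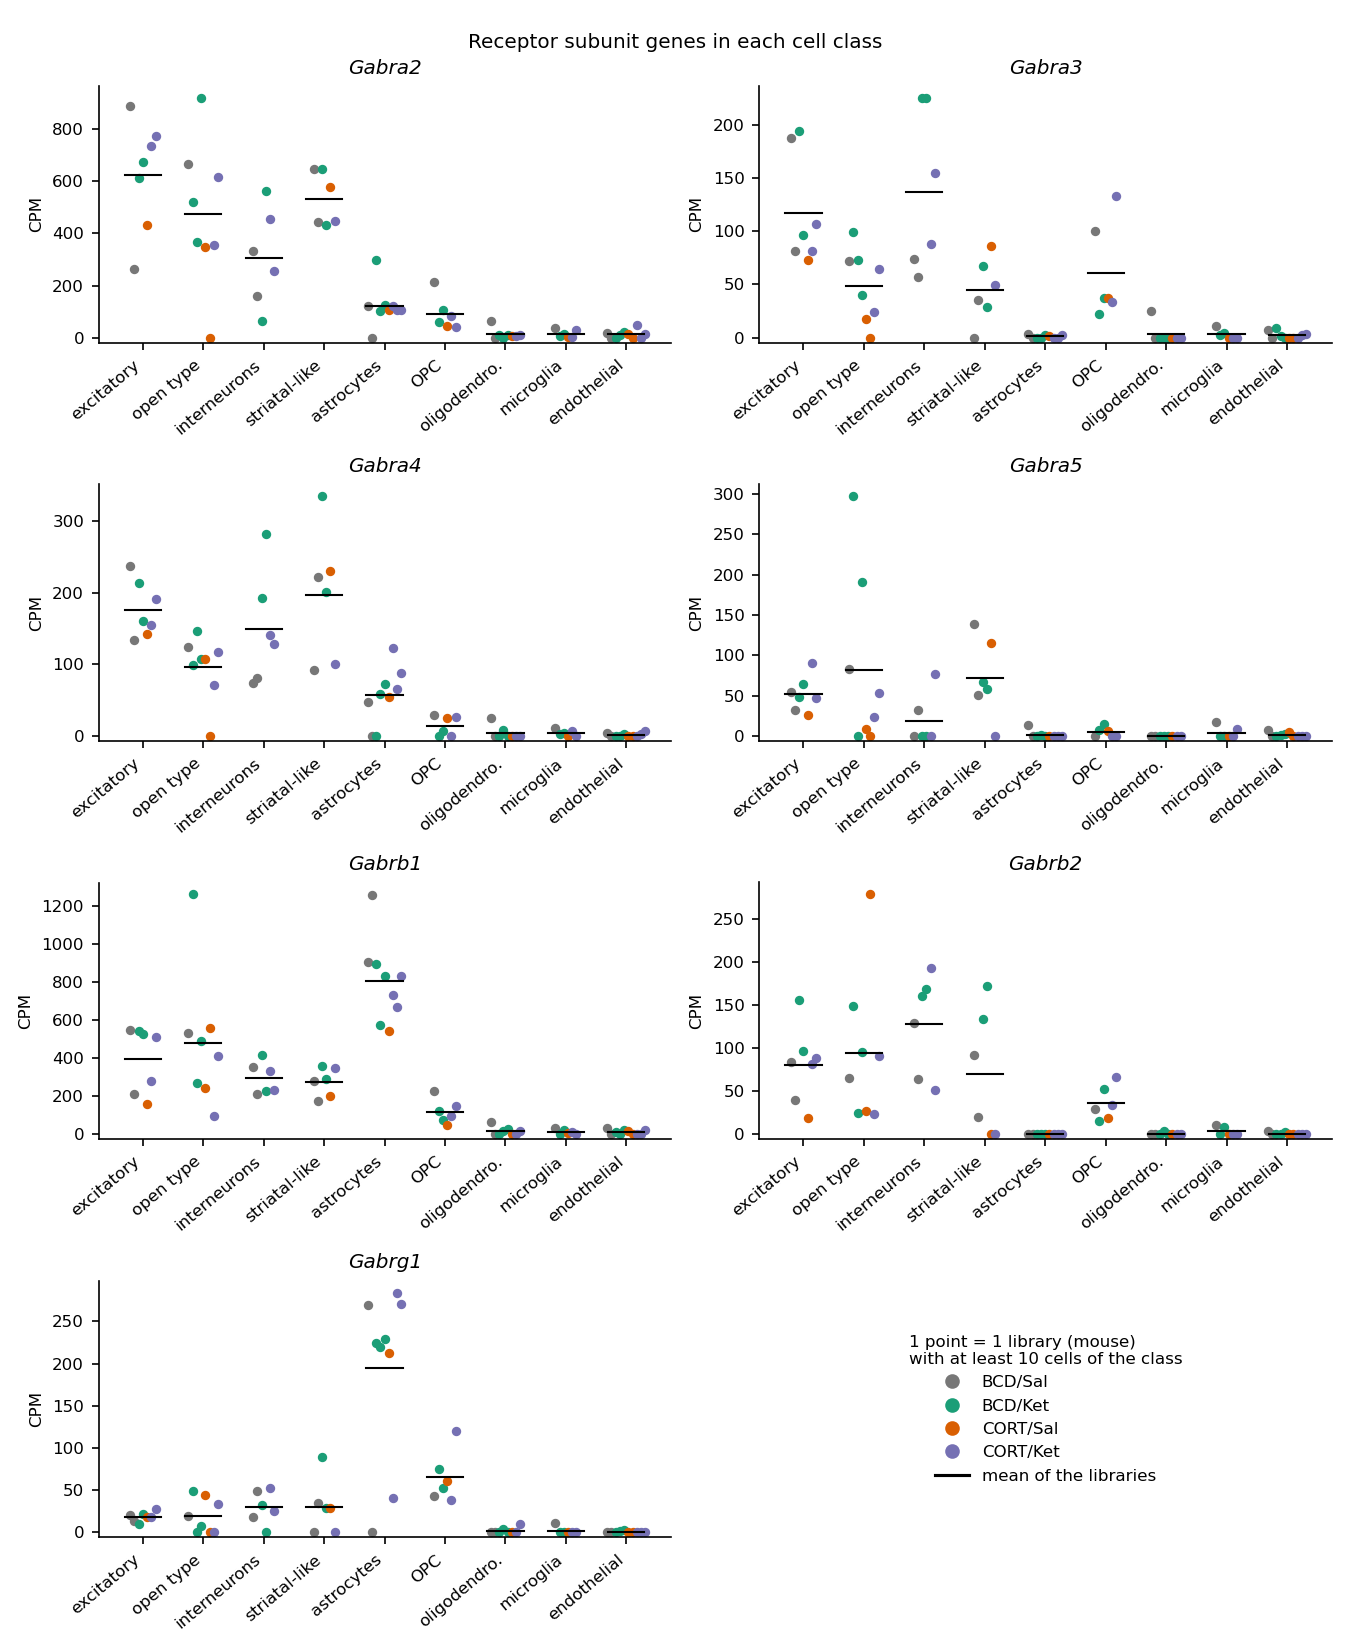
CPM of each of the 7 genes (vertical axis, 1 panel per gene) by cell class (horizontal axis), 1 point per library with at least 10 cells of the class, coloured by treatment group, with the mean over libraries as a black bar. Gabrb1 is highest in astrocytes (mean 806) and Gabra2 in excitatory neurons (mean 626), and Gabrb2 lies at 0 in the astrocytes of all 9 libraries.

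Gabra2 was the leading alpha gene by UMIs in each of the 4 neuron classes. In the excitatory neurons of 7 mice its level was 262 CPM at the lowest (BCD/Sal 9947), 675 at the median and 889 at the highest (BCD/Sal 9901), a mean of 626 ± 214 (SD, n = 7). In striatal-like neurons the 6 libraries lay between 432 and 649 (533 ± 103, SD, n = 6), and in interneurons they spread from 64.3 in BCD/Ket 9946, which rests on 2 UMIs, to 563 (306 ± 185, SD, n = 6). The open-type neurons ran from 0 in CORT/Sal 9970, where only 10 cells were counted, to 920 (474 ± 273, SD, n = 8). The ranges of each of these classes overlapped with the next in order.

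Gabra4 followed in most neurons and Gabra3 in interneurons only slightly behind it. Gabra4 lay between 134 and 238 CPM in excitatory neurons (176 ± 38.7, SD, n = 7), between 92.6 and 335 in striatal-like neurons (197 ± 90.7, SD, n = 6) and between 74.1 and 282 in interneurons (150 ± 77.8, SD, n = 6). Gabra3 lay between 73.3 and 195 in excitatory neurons (118 ± 51.5, SD, n = 7) and between 56.6 and 225 in interneurons (137 ± 75.8, SD, n = 6), whereas in striatal-like neurons it stayed between 0 and 86.5 (44.6 ± 30.4, SD, n = 6). Gabra5 was the scarcest alpha member in excitatory neurons, with 25.7 to 91.0 CPM in the 7 libraries (51.9 ± 21.5, SD). In interneurons only 7 Gabra5 UMIs were counted in all, and 4 of 6 libraries held none.

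Of the beta genes, Gabrb1 outnumbered Gabrb2 in every neuron class. Excitatory neurons held Gabrb1 at 158 (CORT/Sal 9969) to 551 (BCD/Sal 9901) with a median of 512 CPM (398 ± 173, SD, n = 7), and Gabrb2 at 18.3 to 156 with a median of 83.4 (80.5 ± 43.8, SD, n = 7). Interneurons held Gabrb1 at 210 to 418 (295 ± 84.8, SD, n = 6) and Gabrb2 at 51.4 to 193 (128 ± 58.1, SD, n = 6). For Gabrb2 that was the highest mean among the classes, but its range overlapped with those of the excitatory, open-type and striatal-like neurons. Gabrg1 was low throughout the neurons, with 9.73 to 27.9 CPM in excitatory neurons (18.5 ± 5.91, SD, n = 7) and 0 to 52.7 in interneurons (29.6 ± 19.6, SD, n = 6).

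The first comparison asked whether inhibitory cells use other subunits than the excitatory cells of the same mice. In interneurons Gabra2 was lower than in excitatory neurons in 6 of 6 mice, with means of 306 and 658 CPM in these mice and a log2 fold change of -1.06 (SE 0.30, edgeR quasi-likelihood test with the mouse as a block, Benjamini-Hochberg adjusted p = 0.0147 over 2100 genes). Of 4 members tested 1 passed, beside 20% of all genes tested (9.57% higher and 10.5% lower). Gabra4 (-0.38, SE 0.34), Gabrb1 (-0.38, SE 0.28) and Gabra3 (0.02, SE 0.37) did not, and Gabra5, Gabrb2 and Gabrg1 had too few UMIs to be tested. The Gabra2 call ended without BCD/Ket 9946 (-0.84) and with coarser clusters (resolution 0.4, -0.34). Without 9946, 9947 and 9967, Gabrb1 was also called lower, at -0.78.

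When striatal-like neurons were added to the interneurons, 0 of 3 members tested were called against excitatory neurons (7 mice), at 28.7% of all 2105 genes (15.2% higher and 13.5% lower). Gabra2 was at -0.37 (SE 0.23, edgeR adjusted p = 0.226), Gabrb1 at -0.39 (SE 0.21, edgeR adjusted p = 0.163) and Gabra4 at 0.08 (SE 0.25), and 0 of these 3 had an unadjusted p under 0.05. DESeq2 also called 0, and so did the fit without 9946, 9947 and 9967. Other genes of the GABA system were followed in the same fits, from a list of 23 genes that act in receptor anchoring, traffic, GABA uptake and breakdown and chloride transport. Of the 12 tested in this comparison, 2 were higher in inhibitory neurons and 4 lower.

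The 2 kinds of inhibitory cell differed from each other in Gabra2. In the 5 mice with both, striatal-like neurons held 524 ± 113 and interneurons 276 ± 190 CPM (SD, n = 5), and Gabra2 was higher in striatal-like neurons in 4 of 5 mice, with a log2 fold change of 1.06 (SE 0.29, edgeR adjusted p = 0.00177 over 505 genes). This was 1 of 2 members tested, at 26.9% of all genes (12.9% higher and 14.1% lower), and Gabrb1 was at -0.16 (SE 0.27). The call did not hold without BCD/Ket 9946 (0.78), without a mouse block (0.94), with DESeq2 (1.09) or without 9946, 9947 and 9967 (0.51). Gabra3 was below the low-count filter. It lay at 0 to 67.0 CPM in striatal-like neurons and 56.6 to 225 in interneurons, lower in 5 of 5 mice, and without the filter it was at -1.43 (SE 0.59) and was not called, nor was it with DESeq2.

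The excitatory neurons and the open-type neurons, both with Slc17a7, were compared after the clusters were seen, in 5 mice. Slc17a6 gave 10.9% of the summed Slc17a6 and Slc17a7 UMIs in the excitatory neurons and 3.13% in the open-type neurons. The set cutoff lay just below 10.9%, so all excitatory neurons here counted as the Slc17a6 type. Slc17a7 still gave most of these UMIs in them, 1765 against 215 of Slc17a6. Gabra3 was higher in the excitatory neurons in 5 of 5 mice (log2 fold change 1.17, SE 0.28, edgeR adjusted p = 0.00159), as was Gabra4 (0.72, SE 0.23, edgeR adjusted p = 0.0131), while Gabra5 was lower in 4 of 5 mice (-0.95, SE 0.36, edgeR adjusted p = 0.0306). These were 3 of 6 members tested, at 50.4% of all 4862 genes (25.9% higher and 24.5% lower). Gabra2 (0.16), Gabrb1 (-0.24) and Gabrb2 (0.04) did not pass. Gabra5 in the open-type neurons was uneven, with 297 CPM in BCD/Ket 9946, 190 in BCD/Ket 9986, 83.2 in BCD/Sal 9901 and 0 to 53.2 in the other 5 libraries. Its call ended without 9946 (-0.64) or 9986 (-0.71), with DESeq2 (-0.86) and with cells of at least 500 genes (-0.42), without BCD/Sal 9901 it no longer passed the filter, and the Gabra4 call ended without BCD/Sal 9901 (0.64) and with at least 500 genes (0.45). At a mitochondrial limit of 25%, with the clusters drawn anew, Gabra5 turned to 1.19 and was called higher, and the 5 members called there were all higher in the excitatory neurons. The 2 classes differed in depth, with a median of 4287 UMIs per excitatory and 1222 per open-type cell, and the part of depth in these results was not tested. Of the 18 genes of the GABA list that were tested, 6 were higher in excitatory neurons and 4 lower, with Gabarapl1 at 2.03, Gabarapl2 at 2.01, Iqsec3 at -1.80 and Gabarap at 1.79.

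Astrocytes had a narrow set: Gabrb1, Gabrg1, Gabra2 and Gabra4, the 4 genes of the chromosome 5 cluster. Gabrb1 lay between 545 (CORT/Sal 9969) and 1258 CPM (BCD/Sal 9947, 12 UMIs), with a median of 831 (806 ± 215, SD, n = 9). Gabrg1 lay between 212 and 284 in the 6 libraries with at least 182 astrocytes each (248 ± 30.5, SD, n = 6), and in the 3 shallow libraries it was 0, 224 and 40.8 from 4 UMIs in all. Gabra2 lay between 102 and 126 in the 6 deeper libraries (111 ± 10.1, SD, n = 6) and Gabra4 between 47.7 and 88.4 (64.5 ± 14.6, SD, n = 6). The remaining 3 genes were all but missing, with 4 UMIs of Gabra3, 5 of Gabra5 and 0 of Gabrb2 among the 2617993 UMIs of 1363 astrocytes.

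Against the excitatory neurons of the same 7 mice, Gabrb1 was higher in astrocytes in 7 of 7 (858 ± 216 against 398 ± 173 CPM, SD, n = 7), with a log2 fold change of 0.99 (SE 0.22, edgeR adjusted p = 2.62e-05). Gabra2 was lower in 7 of 7 mice (-2.51, SE 0.24, edgeR adjusted p = 8.21e-25), as were Gabra4 (-1.50, SE 0.25, edgeR adjusted p = 3.32e-09) and Gabra3 (-5.12, SE 0.44, edgeR adjusted p = 2.76e-30). So 1 of 4 members tested was higher and 3 were lower, where 19.8% of all 4454 genes were higher and 43.8% lower (63.6% in both directions), with a median log2 fold change of -0.37 over all genes. Gabrg1 failed the filter on low counts because of the shallow libraries. Without them it was tested and called, at 3.73 (SE 0.29, 4 mice), and the other 4 calls held, with Gabrb1 at 1.22, Gabra2 at -2.26, Gabra3 at -4.87 and Gabra4 at -1.20. Without the filter Gabrg1 was at 3.48 (SE 0.39, 7 mice) and higher in 6 of 7 mice, and 7 of 7 members were called there and with DESeq2. Pooled over libraries, Gabrb2 stood at 63.3 CPM in excitatory neurons (92 UMIs). That was 55.2-fold above the astrocyte limit of 1.15 CPM, the 3 UMIs that a count of 0 allows over the class. This ratio limits the astrocyte side only, not the counting error of the 92 UMIs or the spread between mice. Gabra5, without the filter, was at -3.53 (SE 0.57) and lower in 7 of 7 mice.

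Other genes of the GABA system were read in the same fit. The GABA transporter gene Slc6a11 (GAT-3, 5.37) was higher in astrocytes, and Slc12a5, the neuronal potassium-chloride exporter KCC2 (-7.45), and Shisa7, a receptor-associated protein gene (-4.88), were lower. Of the 18 genes of the list that were tested, 4 were higher and 10 lower, beside the 19.8% and 43.8% of all genes given above. The pan-neuronal gene Snap25 stood at 38.6 CPM in astrocytes and 2264 in excitatory neurons.

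**Figure D2:**
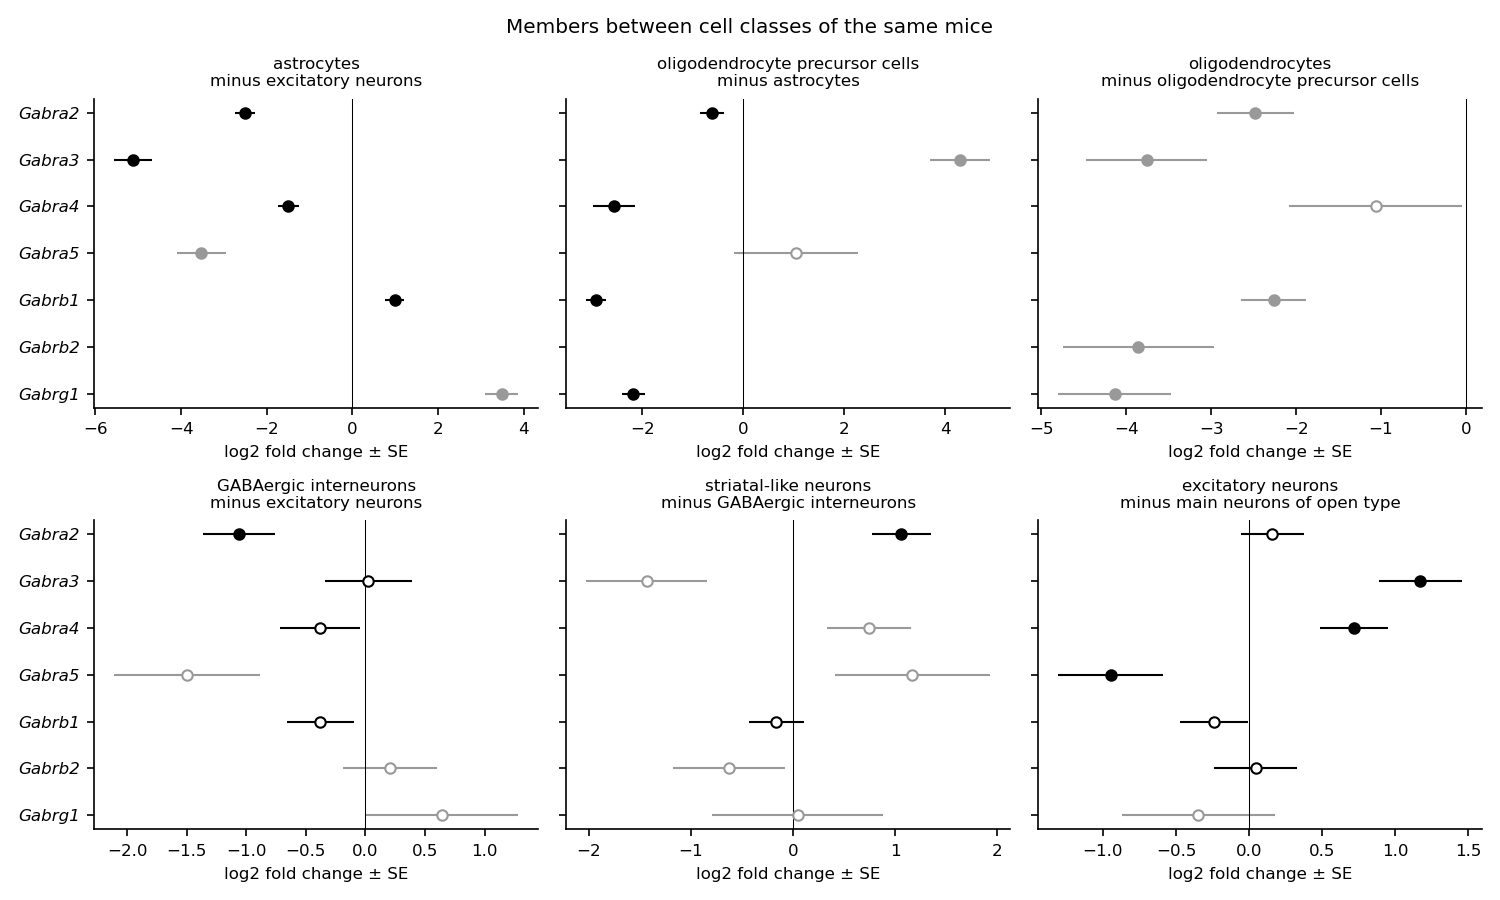
Log2 fold change ± SE of each gene (vertical axis) in 6 comparisons of cell classes within mice (panels), from edgeR, filled where the adjusted p is under 0.05. Black points are genes that passed the low-count filter, grey points are from the fit without it, and no point is drawn where a class had 0 UMIs; Gabrb1 is above 0 in astrocytes against excitatory neurons (0.99) while Gabra2, Gabra3 and Gabra4 are below it.

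Oligodendrocyte precursor cells carried a different set from that of astrocytes. Gabra2 was between 39.99 and 215 CPM in 6 libraries (91.1 ± 65.7, SD), Gabrb1 between 49.1 and 230 (119 ± 64.0, SD), Gabrg1 between 38.9 and 120 (65.2 ± 29.9, SD), Gabra3 between 22.6 and 133 (60.7 ± 45.1, SD) and Gabrb2 between 15.1 and 66.6 (35.8 ± 20.1, SD). All 5 were counted in the precursor cells of each of these 6 libraries, whereas Gabra4 (10 UMIs) and Gabra5 (4 UMIs) were scarce. Some of these values rest on few counts, such as 2 UMIs of Gabrb2 in BCD/Sal 9901 and 2 in BCD/Ket 9949. Compared with astrocytes of the same 6 mice, Gabrb1 was lower in 6 of 6 (-2.92, SE 0.19, edgeR adjusted p = 5.16e-21), Gabra4 in 6 of 6 (-2.56, SE 0.42, edgeR adjusted p = 3.60e-07), Gabrg1 in 6 of 6 (-2.18, SE 0.22, edgeR adjusted p = 4.33e-13) and Gabra2 in 5 of 6 (-0.62, SE 0.23, edgeR adjusted p = 0.0219). All 4 members tested were thus lower in precursor cells, at 50.3% of all 4877 genes called (24.6% lower and 25.7% higher), but the Gabra2 call ended with DESeq2 (-0.79), without the mouse block (-0.60), without CORT/Sal 9969 (-0.50) and with coarser clusters (-0.51).

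Gabra3 and Gabrb2, nearly missing in astrocytes, were found in precursor cells. Gabra3, too low in astrocytes for the filter, was higher in precursor cells in 6 of 6 mice (60.7 ± 45.1 against 1.86 ± 1.51 CPM, SD, n = 6, log2 fold change 4.30 without the filter, SE 0.59). Pooled Gabrb2 in precursor cells (32.9 CPM, 25 UMIs) was 28.7-fold above the same astrocyte limit, which again bounds the astrocyte side only. In the GABA list 6 of 18 genes were higher in precursor cells and 6 lower, with the synapse organisers Igsf9b (6.47) and Slitrk3 (5.82) and Shisa7 (5.43) higher and Slc6a11 (-3.64) lower. Snap25 stood at 160 CPM in precursor cells, above the 38.6 of astrocytes, and the part of neuronal RNA in these values was not tested.

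Mature oligodendrocytes had next to none of the 7 genes. Their 378 cells held 16 UMIs of Gabrb1, 11 of Gabra2, 4 of Gabra4, 2 each of Gabra3 and Gabrg1, 1 of Gabrb2 and 0 of Gabra5 in 1017824 UMIs. None of the members passed the filter for the comparison with precursor cells, in which 67.6% of 2780 genes were called (31.5% higher and 36% lower). Without the filter Gabra2 (-2.48), Gabra3 (-3.76), Gabrb1 (-2.26), Gabrb2 (-3.85) and Gabrg1 (-4.13) were lower in oligodendrocytes, each in 6 of 6 mice, and the same 5 were called by DESeq2. Pooled Gabra5 in excitatory neurons (52.3 CPM, 76 UMIs) was 17.7-fold above the limit of 2.95 CPM for a count of 0 in oligodendrocytes. This bounds the oligodendrocyte side only. From the GABA list 5 of 13 genes were higher in oligodendrocytes and 5 lower, and the 4 that moved most were lower, Shisa7 (-5.22), Slitrk3 (-4.26), Igsf9b (-4.13) and Nlgn2 (-3.87).

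The mix of subunits within a class does not depend on how a library is scaled, and it was taken as the share of each gene among the UMIs of the 4 alpha or the 2 beta members. Each captured molecule counts once whatever its length, but capture near the 3′ end can differ between genes, so a share describes UMIs and not receptors. In excitatory neurons 63.8% of 1311 alpha UMIs were Gabra2 (exact binomial 95% interval 61.2% to 66.4%), 18.8% Gabra4, 11.6% Gabra3 and 5.8% Gabra5. Gabra2 kept the largest share in the other classes, from 54.8% in interneurons to 70.7% in open-type neurons. The second place changed: in interneurons Gabra4 had 22.6% and Gabra3 19.1%, in striatal-like neurons Gabra4 27.1% and Gabra3 5.54%, in astrocytes Gabra4 35.9% and Gabra3 0.860%, and in precursor cells Gabra3 32.7% and Gabra4 8.85%. These intervals and those below cover counting error only.

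**Figure D3:**
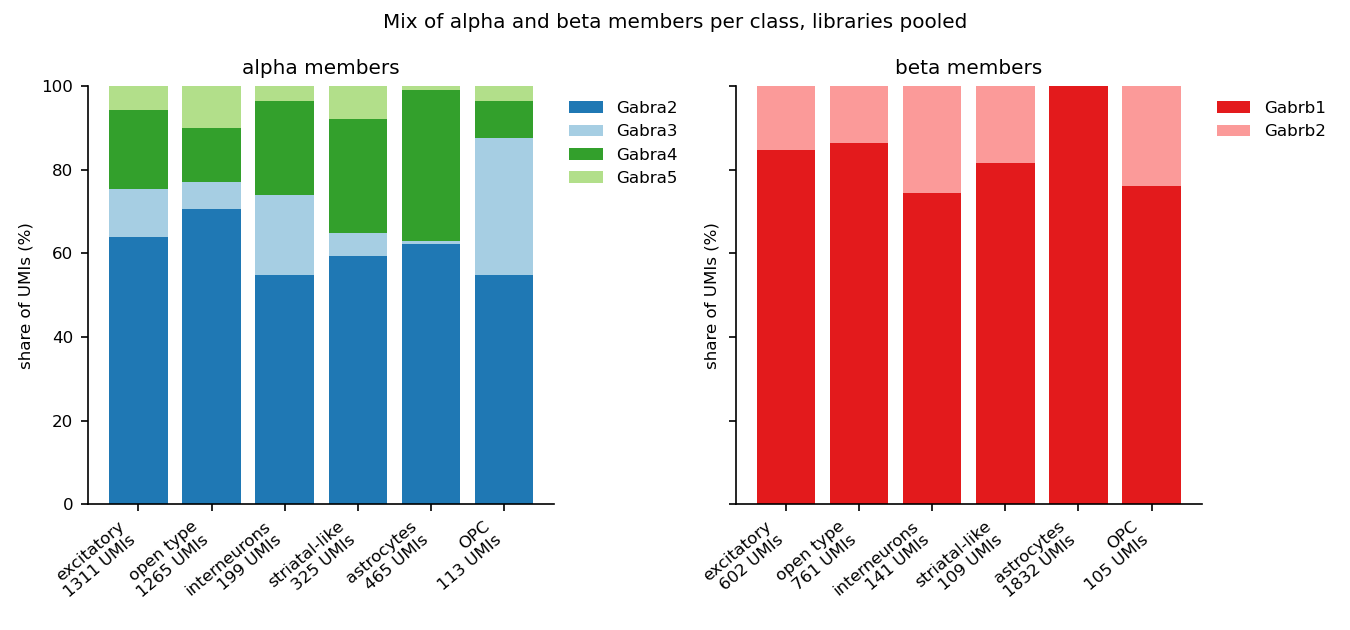
Share in percent (vertical axis) of each gene among the pooled UMIs of the 4 alpha genes (left) and the 2 beta genes (right) in 6 cell classes, with the UMI totals under the bars. Gabra2 takes the largest alpha share in each class, Gabra4 takes 35.9% in astrocytes, Gabra3 32.7% in precursor cells, and Gabrb1 takes 100% of the beta UMIs in astrocytes.

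Shares were compared within mice by an exact sign-flip permutation test, in 19 tests over 4 pairs of classes. The Gabra4 share of alpha UMIs was 35.7% ± 6.33 in astrocytes and 17.6% ± 2.45 in excitatory neurons (SD, n = 6), higher by 18.1 points and higher in 6 of 6 mice. Its exact p of 0.0312 was the smallest that 6 mice allow, and the adjusted p was 0.297. Of the 19 tests this 1 had a p under 0.05, and 0 passed after adjustment. Adjusted over 19 tests, however, no test with 6 or fewer mice could pass, even at its smallest possible p. Only the alpha shares of inhibitory against excitatory neurons, with 8 mice, could pass, and only if several were extreme together. For all other share tests the lack of a call says nothing. The Gabrb1 share of beta UMIs was 71.2% ± 8.61 in inhibitory and 82.2% ± 4.28 in excitatory neurons (SD, n = 5), lower in 5 of 5 mice, with an exact p of 0.0625, again the smallest possible. In precursor cells against astrocytes the Gabra3 share was 26.8% against 1.07% and the Gabra4 share 4.29% against 33.3%, each in the same direction in 3 of 3 mice, which allow no exact p below 0.25. Excitatory shares include BCD/Ket 9949 and CORT/Ket 9968, which had only 7 and 5 such cells but at least 20 alpha UMIs. A further 5 share tests of excitatory against open-type neurons, added later, gave 0 calls.

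Single cells often held several of the alpha genes. Of excitatory neurons with at least 1 UMI of an alpha member, 65.2% had UMIs of 2 or more of the 4 genes, compared with 47.8% in striatal-like neurons, 37.3% in interneurons, 33.7% in open-type neurons, 11.3% in astrocytes and 11.1% in precursor cells. The classes differed in depth, a deeper cell shows more genes, and the part of depth in this order was not tested. In endothelial cells, which should lack these genes, the share was 5.13%.

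For the share of cells with a UMI, each cell was thinned to 1000 UMIs and shallower cells were left out. Gabrb1 was seen in 49.1% of 962 astrocytes (95% interval 45.9% to 52.3%), 27.6% of 225 excitatory neurons and 11.6% of 250 precursor cells, against 1.7% of 715 endothelial cells and 0.846% of 709 microglia. Gabra2 was seen in 38.2% of excitatory neurons (31.8% to 44.9%), 41.9% of 124 striatal-like neurons, 46.5% of 473 open-type neurons, 23.1% of 104 interneurons, 10.9% of astrocytes and 8.8% of precursor cells, against 1.3% of endothelial cells and 1.55% of microglia. Gabrg1 was seen in 20.9% of astrocytes, 4.0% of precursor cells and 2.22% of excitatory neurons, and in 0.14% of endothelial cells. A Gabrb2 UMI was seen in 0 of 962 astrocytes, which allows a share of astrocytes with such a UMI at this depth of up to 0.312%, and sets no limit on cells that carry the RNA uncaptured. Before thinning, 70.9% of excitatory neurons had a Gabra2 UMI and 67.2% and 32.6% of astrocytes had a Gabrb1 and a Gabrg1 UMI, at a median of 4287 UMIs per excitatory neuron, 1542 per astrocyte and 1372 per endothelial cell.

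**Figure D4:**
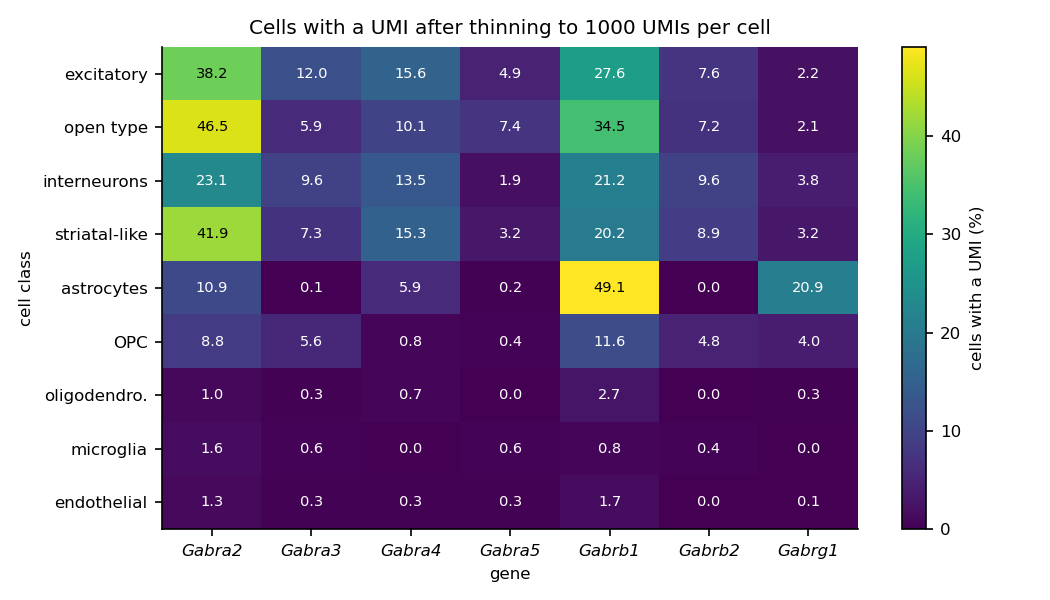
Percent of cells with at least 1 UMI of each gene (columns) in each class (rows) after thinning every cell to 1000 UMIs. Gabrb1 in astrocytes (49.1%) and Gabra2 in open-type (46.5%), striatal-like (41.9%) and excitatory neurons (38.2%) stand out, while endothelial cells and microglia stay at or below 1.7%.

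The treatments were compared within each class, library against library. With at least 2 libraries per group and 10 cells per library, 54 tests of a member could be made in 8 classes, and 0 passed at an adjusted p of 0.05 (edgeR quasi-likelihood test). Of these, 2 had an unadjusted p under 0.05, and DESeq2 gave 0 on either count. The background was as low, from 0% of all genes tested in excitatory neurons, inhibitory neurons and microglia to 0.423% in precursor cells (CORT/Ket against BCD/Ket). For the same contrast it was 0.0525% in open-type neurons, 0.0228% in astrocytes, 0.0286% in oligodendrocytes, 0.0615% in endothelial cells and 0.0643% in pericytes and smooth muscle cells. For BCD/Ket against BCD/Sal it was 0.0114% in astrocytes, 0.0286% in oligodendrocytes and 0.081% in striatal-like neurons. The contrast CORT/Sal against BCD/Sal could be fitted only in endothelial cells, where 0.0923% of all genes were called and no member passed the filter, since CORT/Sal 9970 held few typed cells, so the effect of CORT was read mainly among ketamine-treated mice, and ketamine within CORT only in open-type neurons and endothelial cells. For CORT/Ket against CORT/Sal in open-type neurons, 5 members were tested and 0 called, with a median log2 fold change of 0.95. Of all 3809 genes tested there, 0 were called. The CORT/Sal side was 9969 with 40 cells and 9970 with only 10 cells and 3588 UMIs. The contrasts BCD/Ket against BCD/Sal and CORT/Ket against BCD/Ket share the BCD/Ket mice. In data simulated on these libraries with 4-fold changes, 21.0% of the changed genes were recovered in excitatory neurons (BCD/Ket against BCD/Sal) and 25% in astrocytes (CORT/Ket against BCD/Ket), so changes of that size could often be missed.

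In excitatory neurons the CORT/Ket mice had Gabra2 at 737 and 773 CPM and the BCD/Ket mice at 613 and 675. The single CORT/Sal library had 432, and the BCD/Sal mice had 889 and 262. This last pair enclosed the values of all other groups. The log2 fold change was 0.13 (SE 0.46) for BCD/Ket against BCD/Sal and 0.29 (SE 0.46) for CORT/Ket against BCD/Ket. For Gabrb1 the highest library (551) and the second lowest (213) were the BCD/Sal mice, the BCD/Ket mice lay at 545 and 525, the CORT/Ket mice at 282 and 512, and CORT/Sal was lowest at 158. Its log2 fold changes were 0.45 (SE 0.45) with ketamine and -0.36 (SE 0.45) for CORT/Ket against BCD/Ket. For Gabrb2 the BCD/Ket libraries had 156 and 96.5 and the BCD/Sal ones 83.4 and 39.3, a log2 fold change of 1.02 (SE 0.52, edgeR unadjusted p = 0.0603, adjusted p = 0.999).

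In inhibitory neurons the Gabra2 level of the single CORT/Sal library, 662 CPM, lay above all others. The CORT/Ket mice had 373 and 322, the BCD/Ket mice 409, 335 and 476, and the BCD/Sal mice 423 and 336, so those groups overlapped. Gabra3 was 52.9 and 43.5 in BCD/Sal and 132, 183 and 95.3 in BCD/Ket, which did not overlap, but the test gave 1.38 (SE 0.78, edgeR unadjusted p = 0.0899, adjusted p = 1.00) on 4 to 14 UMIs per library. In CORT/Ket it was 63.9 and 119, between these groups.

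In astrocytes 0 members were called between treatments, and the levels are given for the 6 deeper libraries. For Gabrg1 the pair 9968 and 9971 (CORT/Ket) had 284 and 271 CPM and the pair 9949 and 9986 (BCD/Ket) had 220 and 229. The single libraries were 9969 (CORT/Sal) at 212 and 9901 (BCD/Sal) at 269. With the shallow libraries 9967 (CORT/Ket, 40.8 CPM, 1 UMI) and 9946 (BCD/Ket, 224 CPM, 3 UMIs) added, CORT/Ket and BCD/Ket overlapped for Gabrg1. For Gabrb1 the CORT/Ket pair had 671 and 831 and the BCD/Ket pair 577 and 834, which overlapped, with 545 in 9969 and 909 in 9901. Over all astrocyte libraries, BCD/Ket against BCD/Sal gave -0.24 (SE 0.84) for Gabrb1 and 0.10 (SE 0.74) for Gabrg1, and CORT/Ket against BCD/Ket gave 0.06 (SE 0.75) and 0.09 (SE 0.62). Without 9946, 9947 and 9967 the second contrast gave 0.07 (SE 0.24) for Gabrb1 and 0.28 (SE 0.25) for Gabrg1.

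The 2 tests with an unadjusted p under 0.05 were both in the open-type neurons, for CORT/Ket against BCD/Ket. Gabra5 was 297, 0 and 190 CPM in BCD/Ket and 23.8 and 53.2 in CORT/Ket, a log2 fold change of -1.84 (SE 0.71, edgeR unadjusted p = 0.00925, adjusted p = 0.957). Gabrb1 was 1262, 268 and 492 in BCD/Ket and 95.4 and 410 in CORT/Ket, a log2 fold change of -1.19 (SE 0.59, edgeR unadjusted p = 0.0461, adjusted p = 1.00). The groups overlapped for both genes. Without 9946, 9947 and 9967 the values were -1.50 (SE 0.67) for Gabra5 and -0.45 (SE 0.67) for Gabrb1, and over all classes 21 member tests could then be made, with 0 called and 1 unadjusted p under 0.05. In precursor cells, the class with the most calls, Gabra3 was 22.6 and 37.4 in BCD/Ket and 33.4 and 133 in CORT/Ket (1.21, SE 0.84), and Gabra2, Gabrb1 and Gabrg1 were within 0.31 of 0 on the log2 scale.

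**Figure D5:**
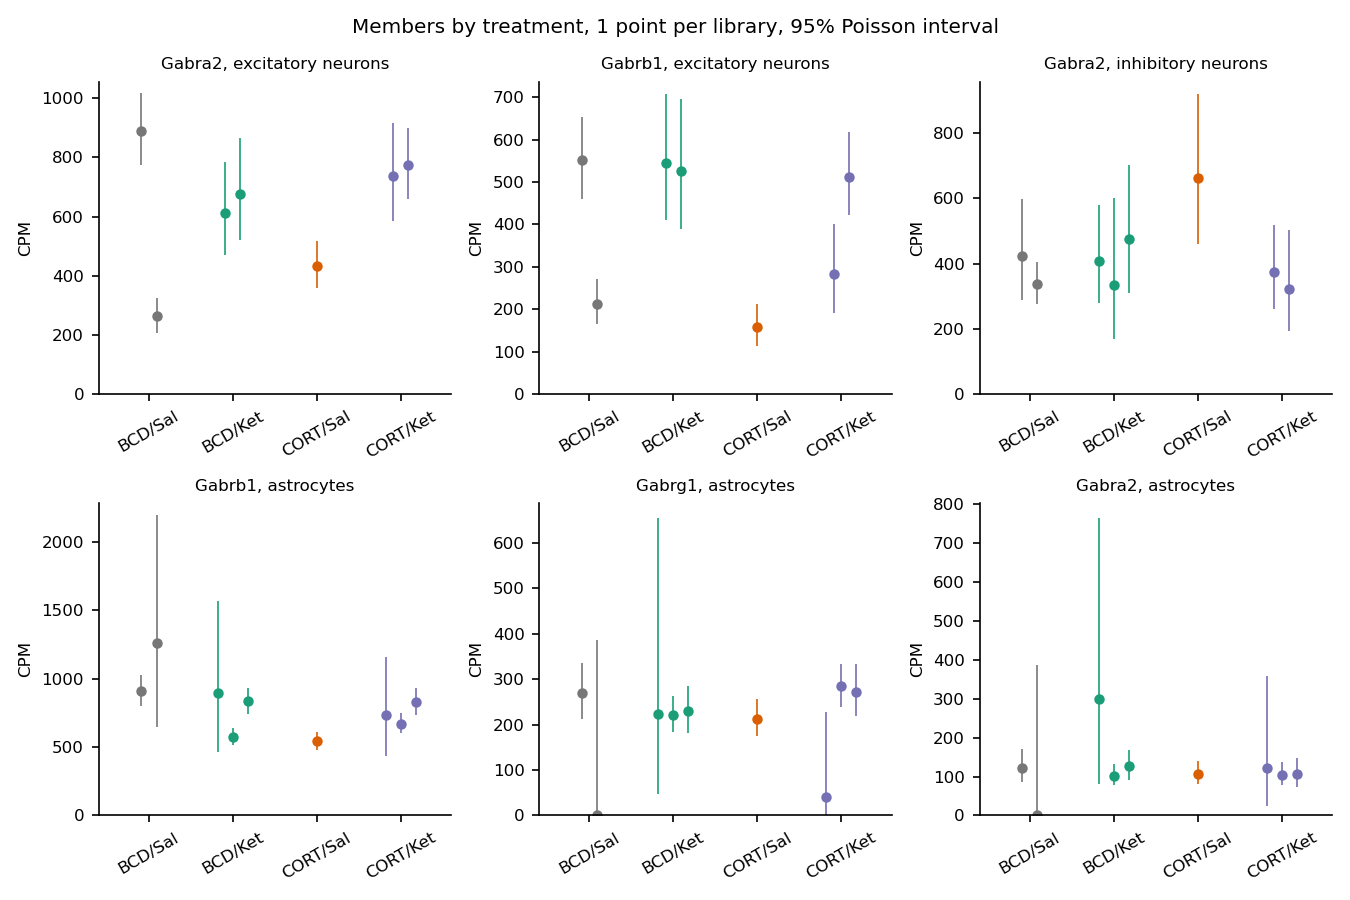
CPM (vertical axis) in each library by treatment group (horizontal axis) for Gabra2 and Gabrb1 in excitatory neurons, Gabra2 in inhibitory neurons, and Gabrb1, Gabrg1 and Gabra2 in astrocytes, with 95% Poisson intervals that cover counting error only. The libraries of 1 group differ as much as the groups do, as for Gabra2 in the excitatory neurons of the BCD/Sal mice (889 and 262).

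The subunit shares were also compared between treatment groups, in 28 exact permutation tests over neurons and astrocytes. With these group sizes the smallest possible p was 0.1, so no such test could pass and nothing is read from them.

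Across the 10 classes with at least 100 cells, the members paired off by where they were found. Gabra3 and Gabrb2 had the most similar profiles (Pearson r = 0.98 of log2 levels over 10 classes), followed by Gabra2 and Gabra4 (r = 0.97), while Gabrb1 was closest to Gabra2 (0.89) and Gabra4 (0.88) and at 0.82 with Gabrg1, and Gabra5 and Gabrg1 were the least alike (0.17). These are descriptions over classes that share libraries and differ in depth. Outside the family, the genes with profiles most like each member included Drp2 for Gabra2, Fstl5 for Gabra3, Cyp46a1 (cholesterol 24-hydroxylase) for Gabra4, Kcnh3 (a potassium channel) for Gabra5, Trim9 and Dclk1 for Gabrb1, Ccdc177 and the sodium channel gene Scn1a for Gabrb2, and Scg3 and the RNA-binding protein gene Msi1 for Gabrg1, with r between 0.98 and 1.00.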

How the data were processed

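Single-cell libraries were made on the 10x Chromium platform from 1 mouse each. The deposited tables hold raw UMI counts per gene and barcode. Their headers name Cell Ranger 3.0.2 as the authors' counting tool, and the submitters' notes name mm9 and Seurat 3.1.1. The labels place the tissue in the BLA although the extraction text speaks of prefrontal cortices. Whether 1 build fits all gene identifiers was not settled, so coordinates serve only to place the genes.

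Barcodes with at least 200 genes and at most 12.5% mitochondrial UMIs were kept and clustered with scanpy 1.11.5 and leidenalg 0.10.2 (Python 3.11.15, 2000 variable genes, 30 principal components, 20 neighbours, resolution 0.8), with all subunit genes and the GABA list left out. A cluster took the class with most of its fixed markers among its 50 leading genes (at least 3), and a cluster with over 90% of its cells from 1 library stayed unnamed. That last rule, and the name of the main open-type cluster, were set after the clusters were seen. By the cutoff on the Slc17a6 share, no cluster named excitatory was of the Slc17a7 type. The Slc17a6 type could be compared with the Slc17a7 type only with the subunit genes kept in the clustering (3 mice, 2 members tested, 0 called). Doublets were not removed, except in an alternative that took out 216 barcodes by Scrublet score (0.8% per 1000 barcodes). The members and gene lists were chosen with earlier results of these data known.

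Counts were summed per library and class (at least 10 cells) and tested with edgeR 4.0.16 in R 4.3.3 (TMM factors, filterByExpr, robust quasi-likelihood test, Benjamini-Hochberg over all genes of a comparison). Class comparisons had the mouse as a block, since both classes came from the same mouse. Treatment fits held all groups. DESeq2 1.42.0 was an alternative. Levels are CPM of a class. Intervals are 95%, exact Poisson or exact binomial, and cover counting error only, and a count of 0 was set to 3 counts over the class. Shares needed at least 20 UMIs of the alpha or beta members in a library. The text names the 7 members, up to 4 genes of the GABA list per comparison with the largest change past the threshold, and genes from the 3 most similar profiles per member (log2 of CPM plus 10, classes of at least 100 cells). Some genes of the GABA list and the other subunit genes are not reported here. The tests were checked on simulated data, in which 26.0% (interneurons against excitatory neurons), 43.0% (astrocytes against excitatory neurons) and 43.5% (precursor cells against astrocytes) of 200 genes changed 4-fold were recovered. Of these 200 genes only 54, 88 and 90 were tested, in the same order. With the right sign, 52, 86 and 87 were recovered.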

Additional observations from a re-analysis of the deposited data

Results flagged for a closer look

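The 7 genes were also counted in barcodes that entered no comparison, in each case above the limit that a count of 0 allows. The 18743 barcodes over the mitochondrial limit, at that limit of 0.110 CPM, held 203 CPM of Gabra2, 44.2 of Gabra3, 35.2 of Gabra4, 24.6 of Gabra5, 165 of Gabrb1, 11.02 of Gabrb2 and 27.7 of Gabrg1. The unnamed cluster of 2352 barcodes, nearly all from CORT/Sal 9970, at a limit of 0.814, held 399 of Gabra2, 86.2 of Gabra3, 44.5 of Gabra4, 38.8 of Gabra5, 185 of Gabrb1, 5.97 of Gabrb2 and 27.4 of Gabrg1. All named classes together held 188 of Gabra2, 26.6 of Gabra3, 56.0 of Gabra4, 20.4 of Gabra5, 256 of Gabrb1, 21.5 of Gabrb2 and 58.3 of Gabrg1. Gabra2, Gabra3 and Gabra5 were thus higher and Gabrb1, Gabrb2, Gabrg1 and Gabra4 lower in the 2 unused sets than in the named classes, with no test made.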

How the results depend on the processing

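Of the single-gene values, 488 kept direction and side of the threshold, 17 lost a call, 3 gained one and 24 changed sign, most of them near 0. The cause of these changes was not tested unless the setting itself removes genes or libraries. Treatment calls stayed at 0 under every alternative that gave a value, including 1 library per group (146 tests, 12 with an unadjusted p under 0.05). Share tests between treatments could not pass and say nothing here.

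The number of members called moved as follows. For interneurons against excitatory neurons (1) it was 0 at resolution 0.4 and 0 to 1 with a library left out, and 2 without the 3 libraries 9946, 9947 and 9967. For inhibitory against excitatory neurons (0) it was 1 at a mitochondrial limit of 25%. For striatal-like neurons against interneurons (1) it was 0 with DESeq2, without the replicate block and without the 3 libraries, and 0 to 1 with a library left out. For astrocytes against excitatory neurons (4) it was 7 with no low-count filter and with DESeq2. For precursor cells against astrocytes (4) it was 1 at a limit of 5% and 3 to 4 with a library left out. For oligodendrocytes against precursor cells (0) it was 5 with no filter and with DESeq2, and 2 at 25%. For excitatory against open-type neurons (3) it was 1 with at least 500 genes or with the subunit genes kept in the clustering, 5 at 25% (all higher), and 1 to 3 with a library left out. Without the replicate block, the pairing by mouse, the counts were 1, 0, 0, 4, 3, 0 and 3 in the order above. The Gabra2 share of 38.2% of excitatory neurons was 21.9% thinned to 500 UMIs and 70.9% not thinned, the Gabrb1 share of 49.1% of astrocytes 31.5% and 67.2%, and the Gabrg1 share of 20.9% of astrocytes 10.0% and 32.6%.

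Signs changed for Gabra3 in interneurons against excitatory neurons (0.02), at -0.031 with RLE factors, -0.36 with no filter, -0.16 with DESeq2, -0.074 with no replicate block, -0.018 without the 3 libraries, -0.0020 with at least 500 genes, -0.10 at resolution 0.4, -0.057 with the highest Scrublet scores removed and -0.11 to 0.25 with a library left out, and for Gabra4 at resolution 0.4 (0.26). In inhibitory against excitatory neurons, Gabra4 (0.08) was at -0.21 with no filter, -0.11 with DESeq2, -0.18 without the 3 libraries and -0.032 to 0.28 with a library left out, and Gabrb2 (-0.09, no filter) was at 0.20 at resolution 0.4 and 0.16 with open-type neurons counted as excitatory. In excitatory against open-type neurons, at 25%, Gabra5 was at 1.19, Gabrb1 at 0.51 and Gabrb2 at -0.45. There, Gabrb1 was at 0.0032 without the 3 libraries and at -0.38 to 0.0032 with a library left out, and Gabrb2 at -0.050 with at least 500 genes and -0.088 to 0.12 with a library left out. A minimum of 30 cells left too few libraries for class comparisons of neurons, and a limit of 5% for all of them but astrocytes against excitatory neurons (3 of 3 members called).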

Other observations

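Outside neurons and the glial classes above, Gabrb1 was counted in 2 small classes of cells that line the ventricles. The 32 ependymal cells held 25 Gabrb1 UMIs, a level of 147 CPM (95% Poisson interval 94.9 to 217), and the 36 choroid plexus cells held 13, a level of 134 (71.2 to 229). Both lay above the 12.9 CPM of pooled endothelial cells (8.76 to 18.3). The other 6 members gave at most 3 UMIs each in either class. Most of these cells came from few libraries, so no test between mice was made.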
